A study of Homo sapiens with 6 samples.

Results

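Long noncoding RNAs (lncRNAs) of the prostate and of the nucleus were followed by RNAseq in the castration resistant prostate cancer line C4-2B and its cabazitaxel (CBZ) resistant derivative RC4-2B. The 7 lncRNAs LINC01029, PCAT1, DRAIC, PCA3, PCGEM1, MALAT1 and NEAT1 were found by their symbols among 58735 genes in the deposited tables. LINC01029 was chosen by its measured rise in RC4-2B on a chromosome whose genes were mostly lower, so its values are given as a description without a test. The other 6 were selected for their known roles. Of the 7 genes, 5 had enough reads for the test across 15054 genes, and PCA3 and PCGEM1 did not. RC4-2B is a single subclone, obtained from C4-2B by repeated rounds of 72 h with CBZ, a taxane that binds tubulin, at concentrations raised from 0.1 to 20 nM over 4 months. C4-2B is its parental line, which did not go through this selection. Before RNA isolation both lines were grown for 72 h in medium for which the paper lists CSS and fetal bovine serum. The paper names no CBZ in this culture. There were 3 biological replicates of each, with 15707134 to 18052517 reads on genes per library.

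Long noncoding RNAs are transcribed and often spliced like messenger RNAs but are not known to encode a protein. PCA3, PCGEM1, PCAT1 and DRAIC were described in prostate tissue or prostate cancer cells, and PCA3 RNA in urine is used as a prostate cancer marker. MALAT1 and NEAT1 are neighbours on chromosome 11 and stay in the nucleus. MALAT1 collects in nuclear speckles, which are stores of splicing factors, and the long form of NEAT1 is the scaffold of paraspeckles, which are bodies that hold RNA-binding proteins. LINC01029 is a little studied intergenic transcript of chromosome 18.

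The ends of MALAT1 and of the long NEAT1 form carry no poly(A) tail of the usual kind. They are made when RNase P cuts in front of a tRNA-like RNA, and a genome-encoded A-rich tract then folds back on U-rich tracts. The last 160 bases before that cut are shown for both genes, 5′ to 3′ on the plus strand of hg38 (GRCh38), because they are the feature the pair shares. For MALAT1 they end in front of the small RNA gene annotated in the deposited tables (chr11:65505957-65506116), and for NEAT1 they end at the end of the annotated gene (chr11:65445381-65445540). Capitals mark TTTTGCTTTT and its reverse complement AAAAGCAAAA, the longest stretch that both windows held in both orientations.
MALAT1 3′ end: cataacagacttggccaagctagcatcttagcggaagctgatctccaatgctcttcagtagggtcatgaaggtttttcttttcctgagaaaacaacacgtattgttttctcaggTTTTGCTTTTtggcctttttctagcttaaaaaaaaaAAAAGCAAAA
NEAT1 3′ end: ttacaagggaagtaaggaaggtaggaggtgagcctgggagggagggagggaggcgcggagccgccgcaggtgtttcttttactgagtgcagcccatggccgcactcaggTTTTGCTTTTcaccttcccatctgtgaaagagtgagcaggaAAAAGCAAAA
In both genes AAAAGCAAAA took the final 10 bases, and TTTTGCTTTT ended 36 bases from the window's end in MALAT1 and 41 bases from it in NEAT1. When chromosome 11 was cut into 840817 windows of 160 bases, 0.356% held either orientation and 2 windows held both. The stretch was picked from the MALAT1 and NEAT1 ends, so its rarity is a description. Chromosome 11 includes these ends, and whether the 2 windows lie there was not tested. These letters describe the ends and were not measured by the libraries.

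LINC01029 lies on the minus strand of chromosome 18 (GRCh38, chr18:77971294-77993722). The deposited tables list a second noncoding gene, AC134978.1, on the same strand inside its span (chr18:77983020-77986610). In GENCODE release 44 the 15 LINC01029 transcripts cover 4449 exonic bases, and 0 of them are shared with the 788 exonic bases of AC134978.1, so the smaller gene sits in LINC01029 introns. The start of the spliced AC134978.1 RNA is shown because it lets the smaller gene be told from the larger one. It runs 5′ to 3′, with the first exon (chr18:77986557-77986610) in capitals and the beginning of the second exon in lower case.
AC134978.1 exon 1 and start of exon 2: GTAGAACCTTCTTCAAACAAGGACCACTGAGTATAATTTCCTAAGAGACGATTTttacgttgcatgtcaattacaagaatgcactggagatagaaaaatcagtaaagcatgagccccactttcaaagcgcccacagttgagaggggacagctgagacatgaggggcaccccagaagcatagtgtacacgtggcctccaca

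Before the members are described, one library needs mention. RC4-2B replicate 2 stood apart from the others in its log2 CPM values. Over genes with a mean log2 CPM above 3, these differed from the other RC4-2B replicates with an SD of 0.53 and 0.61. The SD was 0.22 between RC4-2B replicates 1 and 3 and 0.14 to 0.20 within C4-2B. Values are given with and without RC4-2B replicate 2 where it matters. CPM is the read count divided by the TMM-scaled library size, in the usual unit, and a fold change is RC4-2B over C4-2B. The luminal prostate markers HOXB13, KRT8, KRT18 and KLK2 were present in all 6 libraries. KLK3 was lower in RC4-2B (log2 fold change -4.33, edgeR adjusted p = 0.000154), and KLK2 had 238 CPM in C4-2B against 133 in RC4-2B without overlap (-0.84, edgeR adjusted p = 0.13). The endothelial gene PECAM1 and the basal gene KRT5 had no reads in any library. The leukocyte gene PTPRC had no reads in RC4-2B. The collagen genes COL1A1 (23.3 CPM in C4-2B against 28.7 in RC4-2B) and COL3A1 (0.574 against 1.87) did not pass in edgeR (adjusted p = 0.36 and 0.051).

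LINC01029 was 3.38-fold higher in RC4-2B. It had 193, 208 and 236 reads in C4-2B replicates 1 to 3 and 706, 669 and 716 reads in RC4-2B. On the CPM scale these were 11.5, 11.8 and 13.4 in C4-2B (12.2 ± 1.04, SD, n = 3) and 44.1, 38.1 and 42.1 in RC4-2B (41.4 ± 3.05, SD, n = 3). The groups did not overlap, and the highest C4-2B value lay far under the lowest RC4-2B value, which came from replicate 2. In bulk RNA, more cells that express a gene and more RNA per cell cannot be told apart. The log2 fold change was 1.76, rank 64 from the top of 15054 genes. In FPKM, which is per length of the gene, LINC01029 went from 5.24 ± 0.476 to 18.02 ± 0.917 (SD, n = 3), and its rank among 5906 lincRNA and antisense genes with a read moved from 170 to 20.

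AC134978.1 followed the gene that contains it. It had 40, 60 and 65 reads in C4-2B against 170, 249 and 169 in RC4-2B, or 3.16 ± 0.688 and 11.6 ± 2.29 CPM (SD, n = 3). Its log2 fold change was 1.87, with no overlap between the groups. Whether reads of unspliced LINC01029 were counted for it was not tested. Because the region was chosen for its rise, no test is given for this gene either.

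On chromosome 18, 230 genes were tested, with a median log2 fold change of -0.18 and 65 genes above 0 (28.3%), while the median over all tested genes was 0.0063. AC134978.1 ranked 1 and LINC01029 ranked 3 from the top of these 230, and LINC01029 lay 1.94 above the chromosome's median. The desmosomal cadherin gene DSC3, with 1.78, stood between them. In the plot of chromosome 18 genes they sit at the upper end of a list of which most members lie under 0.

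**Figure D1:**
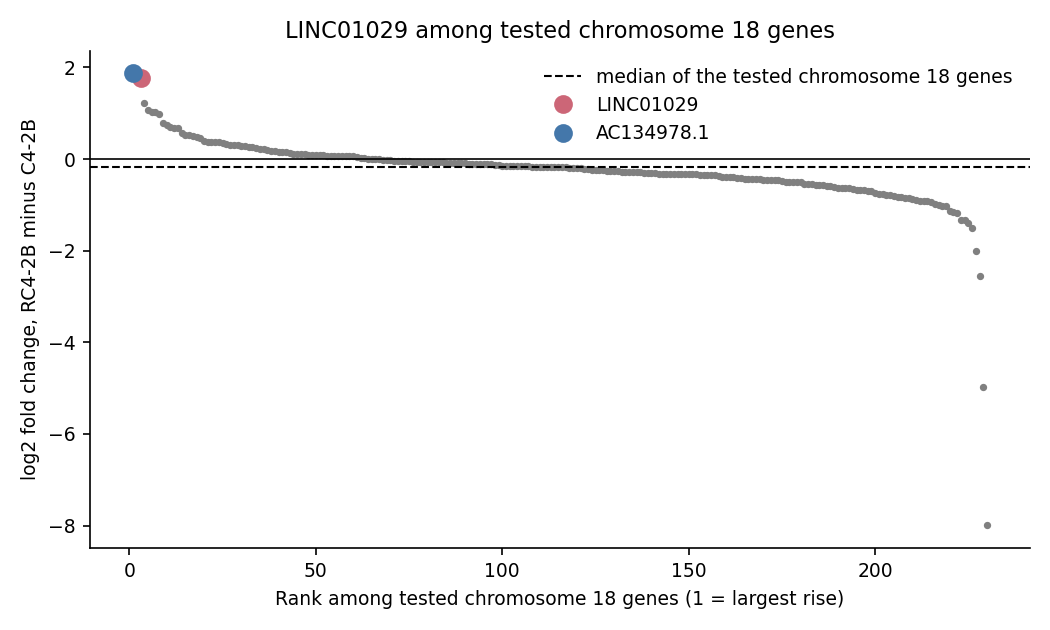
Log2 fold change (RC4-2B minus C4-2B, vertical axis) of the 230 tested chromosome 18 genes, ordered by rank (horizontal axis), with LINC01029 (1.76) and AC134978.1 (1.87) as large points. The dashed line is the chromosome's median of -0.18, and 65 genes lie above 0.

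No other tested gene starts within 500 kb of LINC01029. The nearest tested gene on one side was MBP, the gene of myelin basic protein, 837611 bases away, with 88.0 ± 4.69 CPM in C4-2B against 65.1 ± 8.85 in RC4-2B (SD, n = 3). Its log2 fold change of -0.44 did not pass (edgeR adjusted p = 0.13). On the other side ATP9B, the gene of a phospholipid-transporting ATPase, 1075563 bases away, went from 27.4 ± 2.26 to 22.8 ± 2.89 CPM, with a log2 fold change of -0.27 (edgeR adjusted p = 0.30). Both neighbours thus had fold changes of the opposite sign to that of LINC01029, and neither passed. That sign was the common one on this chromosome, where 28.3% of the tested genes lay above 0.

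The tested genes whose pattern over the 6 libraries was closest to that of LINC01029 were EPAS1, a hypoxia-inducible transcription factor, and TMEFF2, a membrane protein gene of prostate and brain. Their centred log2 CPM values differed from those of LINC01029 by a root mean square of 0.16 and 0.18. EPAS1 had 1.29 ± 0.273 CPM in C4-2B against 4.05 ± 0.614 in RC4-2B (SD, n = 3). These genes were picked for that likeness, which is therefore a description.

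Among the 4 tested lncRNAs other than LINC01029, PCAT1, DRAIC, MALAT1 and NEAT1, 0 were called in either direction by edgeR's quasi-likelihood test at a Benjamini-Hochberg adjusted p under 0.05. Over all tested genes the same test called 1.08% higher and 0.903% lower. At an unadjusted p under 0.05, 2 of the 4 (PCAT1 and NEAT1) passed, as did 21.4% of all tested genes. DESeq2 called 1 of the 4, PCAT1, where its calls over all genes were 3.28% higher and 2.64% lower. The values of 1 of the 4 did not overlap between the lines, against 34.1% of all tested genes. The plot of normalised counts by library shows the spread behind these calls.

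**Figure D2:**
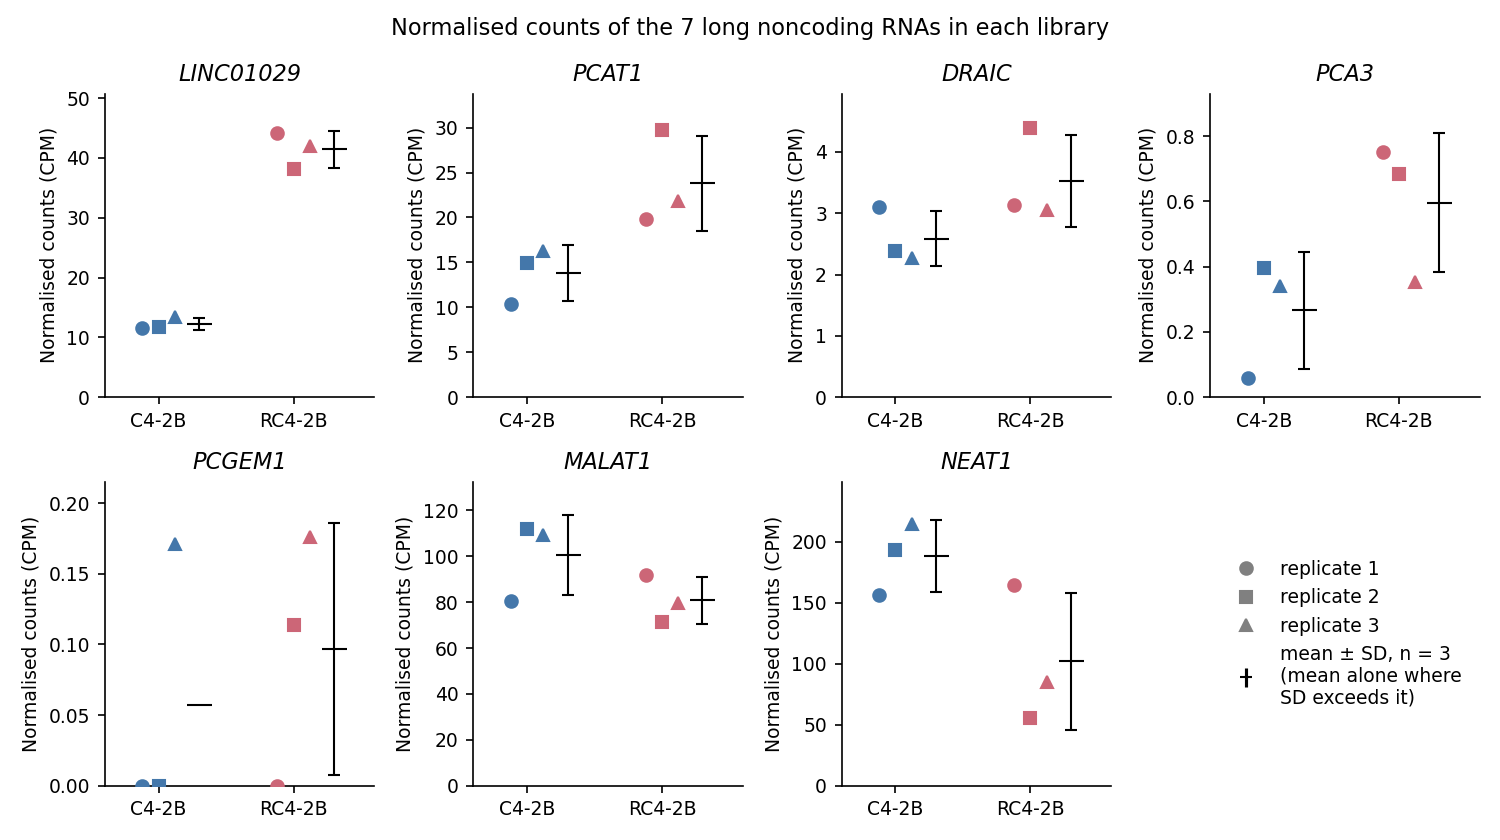
Normalised counts (CPM, vertical axes from 0) of the 7 lncRNAs in 3 C4-2B libraries (blue) and 3 RC4-2B libraries (red), with the replicate number as the point shape and the mean ± SD in black (the mean alone where the SD exceeds it). LINC01029 and PCAT1 do not overlap between the lines, and the other 5 do.

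PCAT1 is an lncRNA of the 8q24 region that was described as higher in prostate cancer than in normal prostate. It is annotated on the plus strand (chr8:126556323-127419050). It had 173, 263 and 285 reads in C4-2B and 317, 522 and 371 reads in RC4-2B, or 10.3, 14.9 and 16.2 CPM (13.8 ± 3.10, SD, n = 3) against 19.8, 29.8 and 21.8 CPM (23.8 ± 5.26, SD, n = 3). All 3 RC4-2B values lay above all 3 C4-2B values, and the highest was that of RC4-2B replicate 2. The log2 fold change was 0.78 with a standard error of 0.22 and a 95% interval of 0.28 to 1.29, and it did not pass in the fit of all 6 libraries (edgeR adjusted p = 0.11).

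The call of PCAT1 depended on the fit. It passed as higher with DESeq2 (log2 fold change 0.78, adjusted p = 0.029), with edgeR and no filter on low counts (0.78, adjusted p = 0.013, where 2.07% of all genes were called higher), and with edgeR and a correction for GC content (0.68, adjusted p = 0.043, where 4.36% were called higher). Without RC4-2B replicate 2, PCAT1 also passed (0.59, edgeR adjusted p = 0.026). In that fit the calls over all genes rose to 6.5% higher and 6.02% lower. With each other library left out it did not pass.

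The span of PCAT1 in the deposited annotation overlaps other genes. FAM84B, a protein-coding gene on the opposite strand, shares 2071 bases with it. It had 114 ± 1.79 CPM in C4-2B against 96.3 ± 8.88 in RC4-2B, with a log2 fold change of -0.25 (edgeR adjusted p = 0.24), and it passed as lower without RC4-2B replicate 2 (-0.32, edgeR adjusted p = 0.024). Whether the counting used strand is not given in the sources used here, and reads in the shared bases could be counted for either gene or for neither. CASC8, CASC19, PRNCR1 and POU5F1B, which also lie in the span, had mean levels under 1 CPM in both lines. The genes with the closest pattern were NFAT5, a transcription factor of the response to osmotic stress, and BPTF, a subunit of a chromatin remodelling complex, with root mean square differences of 0.063 and 0.080 on the log2 scale over the 6 libraries.

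DRAIC is an lncRNA described as a tumour suppressor in prostate cancer and lies on the plus strand of chromosome 15 (chr15:69463026-69843120). It was read 52, 42 and 40 times in C4-2B and 50, 77 and 52 times in RC4-2B, which gave 3.10, 2.38 and 2.28 CPM (2.59 ± 0.450, SD, n = 3) and 3.13, 4.39 and 3.05 CPM (3.52 ± 0.751, SD, n = 3). The groups overlapped, and RC4-2B replicate 2 was again the highest. The log2 fold change of 0.45 had a 95% interval of -0.13 to 1.02 and did not pass (edgeR adjusted p = 0.32). Without RC4-2B replicate 2 the log2 fold change of DRAIC was 0.26 (edgeR adjusted p = 0.56).

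The ribosomal protein gene RPLP1 is 6832 bases from DRAIC and had a log2 fold change of -0.42 (edgeR adjusted p = 0.24). On the other side TLE3, the gene of a transcriptional corepressor, had -0.27 (edgeR adjusted p = 0.39). Of 5 tested genes that start within 500 kb, 0 passed in edgeR, and 1 (20%, near the 21.4% of all tested genes) had an unadjusted p under 0.05. That gene was PAQR5, which encodes a membrane progesterone receptor, with 2.40 ± 0.329 CPM in C4-2B against 4.77 ± 0.710 in RC4-2B (log2 fold change 0.99, edgeR adjusted p = 0.065, DESeq2 adjusted p = 0.028). ZFAND4 and LRRC37BP1 had the patterns closest to that of DRAIC, with root mean square differences of 0.058 and 0.059.

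PCA3, the urine marker, lies on chromosome 9 (chr9:76691980-76863307), within and antisense to PRUNE2. It had 1, 7 and 6 reads in C4-2B and 12, 12 and 6 reads in RC4-2B, that is 0.266 ± 0.181 and 0.596 ± 0.213 CPM (SD, n = 3), with 3 reads corresponding to 0.170 to 0.188 CPM. The groups overlapped, with 7 reads in C4-2B replicate 2 against 6 in RC4-2B replicate 3. The PCA3 counts were under the filter of the test. Without that filter edgeR gave a log2 fold change of 1.12 (adjusted p = 0.41).

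PRUNE2 itself was read 4147, 5334 and 5312 times in C4-2B and 4381, 6811 and 5007 times in RC4-2B, and its log2 fold change of 0.17 did not pass (edgeR adjusted p = 0.52). Reads of PCA3 amounted to 0.000241, 0.00131 and 0.00113 of those of PRUNE2 in C4-2B against 0.00274, 0.00176 and 0.00120 in RC4-2B. The mean log2 ratio was higher by 1.34 in RC4-2B, with overlap between the lines (exact two-sided permutation test, p = 0.2, where the smallest possible p is 0.1). Without 1 library the difference ran from 0.56 to 1.78. Because strand use in counting is not given in the sources used here, a few PRUNE2 reads on the antisense gene cannot be told apart from PCA3 itself.

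PCGEM1, an androgen-regulated prostate transcript on chromosome 2 (chr2:192749845-192776899), was read at most 3 times in a library. It had 0, 0 and 3 reads in C4-2B and 0, 2 and 3 reads in RC4-2B. No library exceeded 3 reads, so no difference was detectable at this depth and no fold is given.

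The nearest tested gene to PCGEM1, 554136 bases away, was TMEFF2, which also stood next to LINC01029 in its pattern. It had 55.7 ± 7.79 CPM in C4-2B against 155 ± 15.5 in RC4-2B (SD, n = 3), with no overlap, and it was called higher (log2 fold change 1.47, edgeR adjusted p = 0.0025). SLC39A10, a zinc transporter gene on the other side, had a log2 fold change of 0.38 that did not pass (edgeR adjusted p = 0.44).

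MALAT1 (chr11:65497688-65506516, plus strand) ranked 57 in C4-2B and 77 in RC4-2B by FPKM among the 5906 lincRNA and antisense genes with a read. It had 1351, 1975 and 1922 reads in C4-2B and 1467, 1252 and 1354 reads in RC4-2B, or 80.6, 112 and 109 CPM (101 ± 17.4, SD, n = 3) and 91.7, 71.4 and 79.5 CPM (80.9 ± 10.2, SD, n = 3). The groups overlapped because C4-2B replicate 1 was lower than RC4-2B replicate 1. The log2 fold change was -0.32 with a 95% interval of -0.68 to 0.05 (edgeR adjusted p = 0.28), and MALAT1 did not pass in any of 18 alternative fits.

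NEAT1 (chr11:65422774-65445540, plus strand) had the widest spread in RC4-2B, relative to its mean, of the 5 tested members. It had 2624, 3420 and 3773 reads in C4-2B, and 2628, 978 and 1454 reads in RC4-2B. The CPM values were 157, 194 and 215 in C4-2B (188 ± 29.5, SD, n = 3) and 164, 55.8 and 85.4 in RC4-2B (102 ± 56.1, SD, n = 3). RC4-2B replicate 1 was within the C4-2B range, and RC4-2B replicates 2 and 3 were below it.

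Its log2 fold change of -0.89 had a 95% interval of -1.67 to -0.11 and did not pass (edgeR adjusted p = 0.19, DESeq2 adjusted p = 0.059). Without RC4-2B replicate 1 NEAT1 passed as lower (-1.41, edgeR adjusted p = 0.032, where 1.44% of all genes were called lower), and with no filter on low counts it also passed (-0.89, edgeR adjusted p = 0.0032, where 2.22% were called lower). Without RC4-2B replicate 2 the log2 fold change was -0.59 and did not pass (edgeR adjusted p = 0.054). Without that library and with the correction for GC content NEAT1 passed as lower (-0.64, edgeR adjusted p = 0.027). That fit called 6.59% of all genes lower. The deposited counts pool the short, polyadenylated NEAT1 form with the long form, so the forms were not separated.

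**Figure D3:**
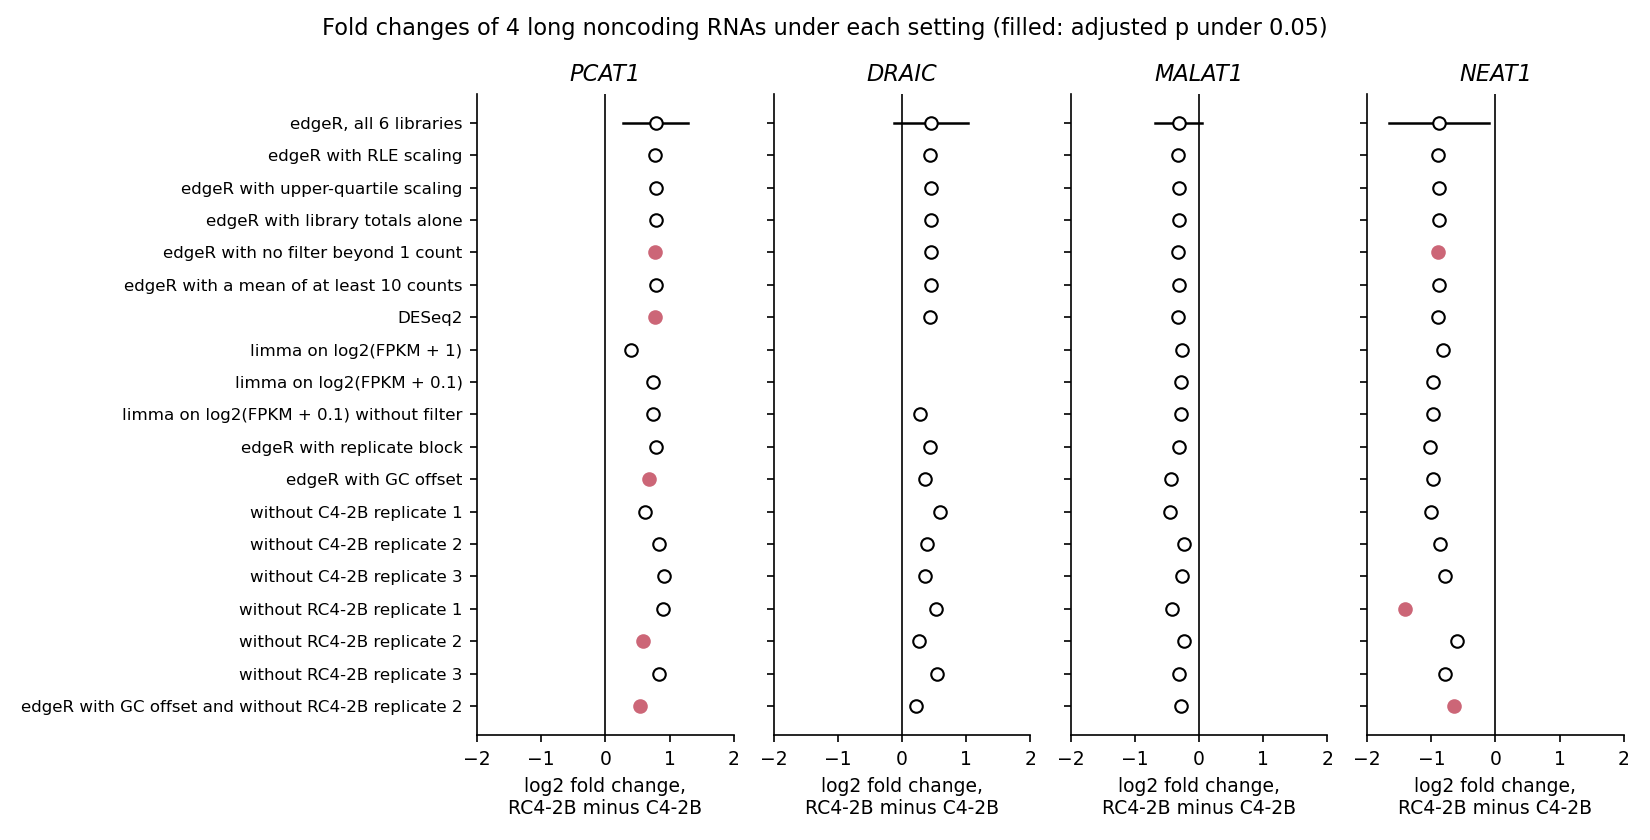
Log2 fold change (RC4-2B minus C4-2B, horizontal axes) of PCAT1, DRAIC, MALAT1 and NEAT1 under each fit (rows), with filled points for an adjusted p under 0.05 and the 95% interval for the edgeR fit of all 6 libraries. All points of PCAT1 and DRAIC lie above 0 and all points of MALAT1 and NEAT1 lie below 0, and filled points appear for PCAT1 and NEAT1.

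Within a library, the ratio of NEAT1 to MALAT1 reads does not depend on scaling. It was 1.94, 1.73 and 1.96 in C4-2B against 1.79, 0.781 and 1.07 in RC4-2B. RC4-2B replicate 1 lay inside the C4-2B range and the other RC4-2B replicates lay under it. The mean log2 ratio was lower in RC4-2B by 0.71 on average (difference -0.71, exact two-sided permutation test, p = 0.2, where the smallest possible p is 0.1), and without 1 library the difference ran from -1.03 to -0.44.

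The libraries also differed in an RNA that is made without a poly(A) tail. RN7SL2, an RNA of the signal recognition particle, had 2225, 2072 and 1932 reads in C4-2B and 1942, 30 and 145 reads in RC4-2B. The low values came from RC4-2B replicates 2 and 3, which are the replicates in which NEAT1 was low, while RC4-2B replicate 1 was at the C4-2B level for both genes. The log2 fold change of RN7SL2 was -1.45 (edgeR adjusted p = 0.43), and without RC4-2B replicate 1 it passed as lower (-4.55, edgeR adjusted p = 0.017). The part of this difference in the NEAT1 values was not tested. RN7SL1, a near-identical copy, was at 0 in all libraries, so the reads of the pair are uncertain. Of the 8 listed RNAs without a poly(A) tail 6 had no library above 3 reads, and TERC, the telomerase RNA, had 4, 0 and 5 reads in C4-2B and 0 in each RC4-2B library.

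**Figure D4:**
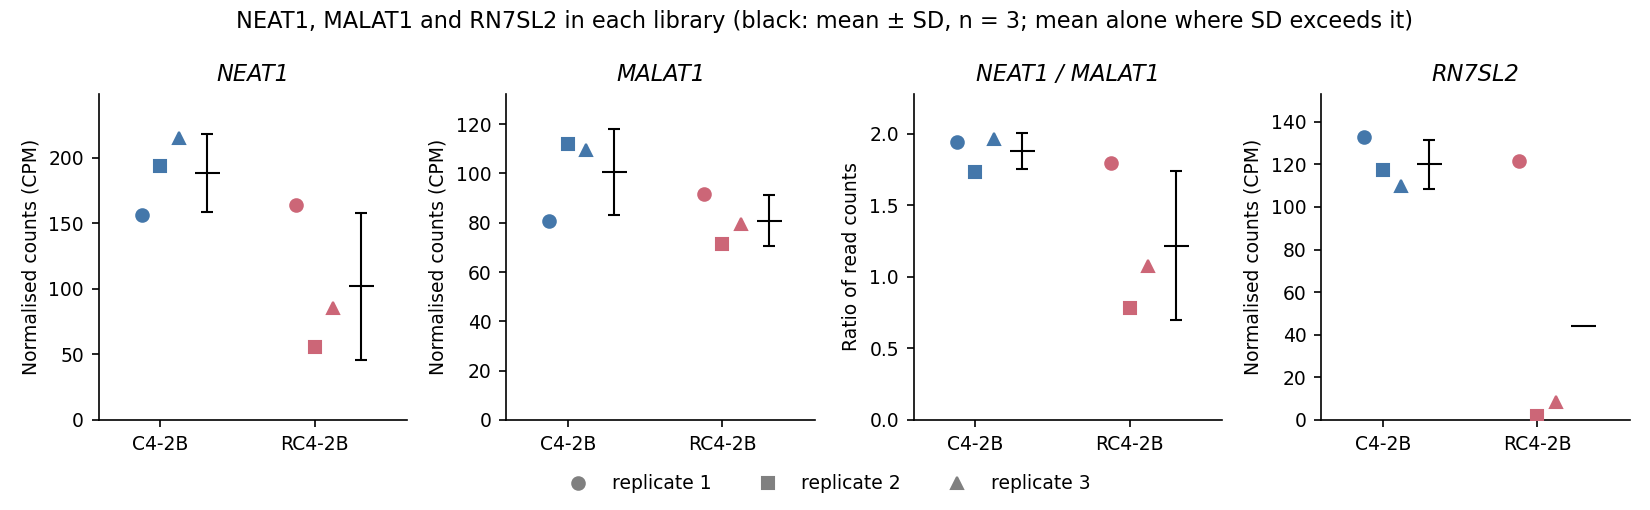
Normalised counts (CPM) of NEAT1, MALAT1 and RN7SL2 and the ratio of NEAT1 to MALAT1 reads in each library, with C4-2B in blue, RC4-2B in red, the replicate number as the point shape and the mean ± SD in black (the mean alone where the SD exceeds it). RC4-2B replicates 2 and 3 lie low for NEAT1 (55.8 and 85.4 CPM), the ratio (0.781 and 1.07) and RN7SL2, and RC4-2B replicate 1 lies with C4-2B.

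The region around the pair was described from its neighbours. Of 44 tested genes that start within 500 kb of MALAT1, 0 passed in edgeR in either direction. An unadjusted p under 0.05 was found for 11 (25%), near the 21.4% of all tested genes. A log2 fold change above 0 was seen in 7627 of all 15054 tested genes and in 1 of the 44. DESeq2 called 2 of the 44 lower, where it called 2.64% of all genes lower. The 2 genes were TM7SF2, a sterol reductase gene, and DRAP1, a gene of a transcriptional corepressor (-0.94 and -0.82, DESeq2 adjusted p = 0.017 and 0.037). The median of the 44 was -0.37 in edgeR, between the values of MALAT1 and NEAT1 and near that of MALAT1. The 43 tested neighbours of NEAT1 are nearly the same genes, with the same median of -0.37. The one MALAT1 neighbour above 0 was AP000769.1, which lies between NEAT1 and MALAT1, with 3.84 ± 0.370 CPM in C4-2B against 4.93 ± 0.457 in RC4-2B (log2 fold change 0.36, edgeR adjusted p = 0.30).

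These neighbours were rich in G and C, with a median of 59.3% against 48.2% for all tested genes. With the correction for GC content their median moved to -0.088 with 12 of 44 above 0, and without RC4-2B replicate 2 it was -0.16 with 8 of 44 above 0. With that correction MALAT1 had -0.44 and NEAT1 -0.97, so the neighbours' median was no longer near the value of MALAT1. FRMD8, next to NEAT1, had a log2 fold change of -0.28 (edgeR adjusted p = 0.53).

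**Figure D5:**
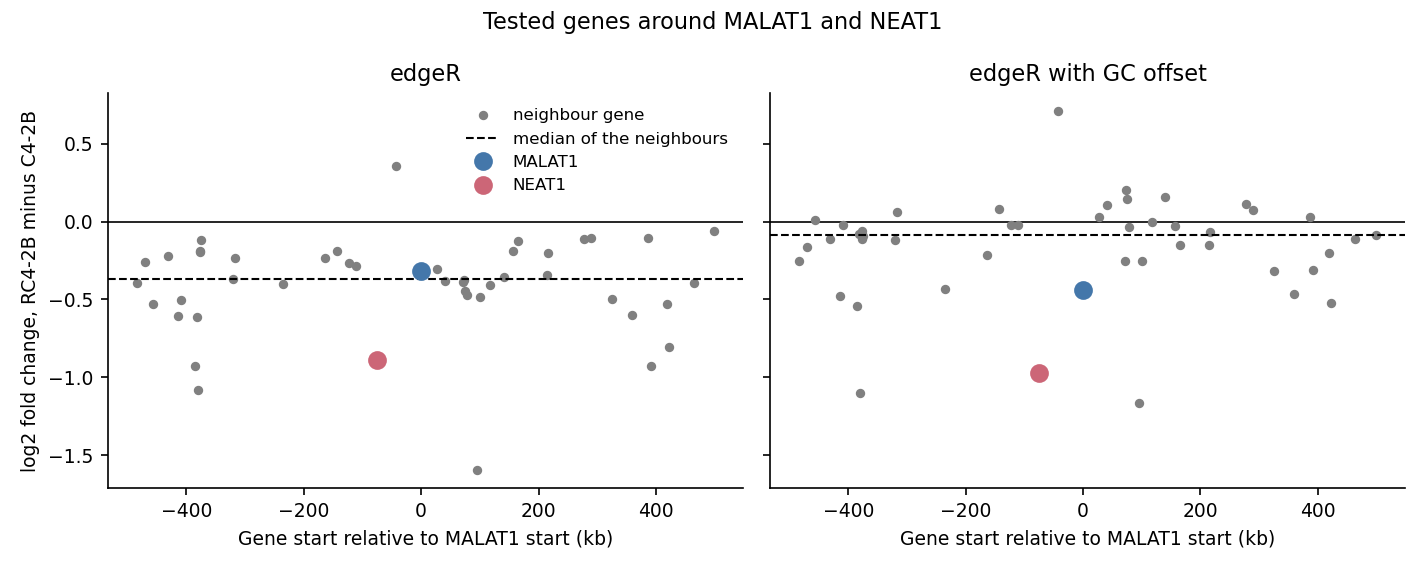
Log2 fold change (RC4-2B minus C4-2B, vertical axis) of the tested genes within 500 kb of MALAT1 against the distance of their start from that of MALAT1 in kb (horizontal axis), by edgeR (left) and with the correction for GC content (right). The dashed median of the 44 neighbours is -0.37 on the left and -0.088 on the right, and NEAT1 lies below it in both. MALAT1 lies above it on the left (-0.32) and below it on the right (-0.44).

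Genes of proteins that work with these RNAs were counted from their messenger RNA. Of 19 tested genes of paraspeckle proteins, 0 passed in edgeR and DESeq2 called 2 lower, where it called 2.64% of all genes lower. An unadjusted edgeR p under 0.05 was found for 2 (10.5%, against 21.4% of all tested genes), and the median log2 fold change of the 19 was -0.12. The most abundant were HNRNPA1 (1473 ± 63.2 CPM in C4-2B against 1327 ± 167 in RC4-2B, SD, n = 3) and HNRNPK (1030 ± 21.2 and 947 ± 52.7 CPM), both of which bind RNA in many steps of its processing. The core paraspeckle protein genes NONO and SFPQ had log2 fold changes of 0.067 and -0.13 that did not pass (edgeR adjusted p = 0.65 and 0.43).

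DAZAP1, which encodes an RNA-binding protein that paraspeckles contain, had 4913, 4906 and 4463 reads in C4-2B against 3543, 2509 and 3406 in RC4-2B, or 275 ± 19.7 and 188 ± 40.6 CPM (SD, n = 3), with no overlap. Its log2 fold change of -0.55 did not pass in edgeR (adjusted p = 0.12) and passed in DESeq2 (-0.56, adjusted p = 0.044) and in edgeR without RC4-2B replicate 2 (-0.38, adjusted p = 0.0089). This gene was named after its values were seen.

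Of 17 tested genes of nuclear speckle proteins, 0 passed in edgeR or DESeq2, 2 (11.8%, against 21.4% of all tested genes) had an unadjusted edgeR p under 0.05, and the median log2 fold change was -0.12. The splicing factor gene U2AF2 went from 578 ± 43.6 to 420.8 ± 158 CPM (SD, n = 3) and the speckle scaffold gene SRRM2 from 505 ± 37.9 to 546 ± 58.3 CPM, and neither passed (edgeR adjusted p = 0.32 and 0.56).

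The RNase subunits and partners that act on the MALAT1 and NEAT1 ends gave 0 calls of 12 in edgeR, 3 unadjusted p under 0.05 (25%, near the 21.4% of all tested genes), and a median log2 fold change of 0.093. ELAC2, the RNase Z that trims the tRNA-like piece, had 197 ± 3.81 CPM in C4-2B against 257 ± 7.95 in RC4-2B, without overlap (log2 fold change 0.38, edgeR adjusted p = 0.075, DESeq2 adjusted p = 0.036). METTL16, a methyltransferase that binds the MALAT1 triple helix, had 79.9 ± 1.57 and 106 ± 7.64 CPM (0.40, edgeR adjusted p = 0.097). RPP21, a subunit of RNase P, was scarce, with 15, 12 and 14 reads in C4-2B and 5, 1 and 1 reads in RC4-2B (-2.44, edgeR adjusted p = 0.080). All 3 passed without RC4-2B replicate 2 (edgeR adjusted p = 0.0050, 0.014 and 0.049). That fit called 6.5% of all genes higher and 6.02% lower. ELAC2 and METTL16 are the most abundant of this list, and RPP21 was named after its values were seen.

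Of 18 other prostate lncRNAs on the list, 15 were in the tables, 4 had no library above 3 reads, and 8 were tested. edgeR and DESeq2 called 0 of the 8. An unadjusted edgeR p under 0.05 was found for 2 (25%, against 21.4% of all tested genes and 13.4% of tested lincRNA and antisense genes). All 8 had log2 fold changes below 0 with a median of -0.31. Of 1449 tested lincRNA and antisense genes 652 lay above 0, and the median of the 1449 was -0.062. With the correction for GC content the median of the 8 was -0.23, and 2 of the 8 lay above 0. TMPO-AS1 had 10.9 ± 1.01 CPM in C4-2B against 9.68 ± 1.25 in RC4-2B (-0.18, edgeR adjusted p = 0.53), and TRPM2-AS had 7.37 ± 0.291 and 5.56 ± 0.703 CPM without overlap (-0.41, edgeR adjusted p = 0.23). Without RC4-2B replicate 2, 2 of the 8 passed as lower, where 6.02% of all genes did, and 2 had values above 0. The 2 that passed were SCHLAP1 and ARLNC1. SCHLAP1, an antagonist of a chromatin remodelling complex, had -1.12 in that fit (edgeR adjusted p = 0.010) and -0.69 with all 6 libraries (edgeR adjusted p = 0.26). ARLNC1, which is regulated by androgen, had -1.76 (edgeR adjusted p = 0.044) and -0.87 (edgeR adjusted p = 0.35). RC4-2B replicate 2 lay within the C4-2B range for both genes. ARLNC1 was scarce, with 4 and 5 reads in RC4-2B replicates 1 and 3.

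Of 14 other nuclear noncoding RNAs, 6 were tested, 0 were called by edgeR or DESeq2, and the median log2 fold change was 0.20. This median was not stable: it was -0.00097 with the correction for GC content, 0.015 without C4-2B replicate 2, 0.063 without RC4-2B replicate 3, 0.34 without C4-2B replicate 3 and 0.35 without RC4-2B replicate 1. TUG1 had 2608, 3222 and 3331 reads in C4-2B against 2900, 5108 and 3387 in RC4-2B (0.35, edgeR adjusted p = 0.29), with overlap and with its highest value in RC4-2B replicate 2. SNHG1, a host of small nucleolar RNAs, had 1497, 1512 and 1419 reads in C4-2B against 1349, 601 and 1156 in RC4-2B (-0.46, edgeR adjusted p = 0.35). FIRRE, a nuclear RNA of the X chromosome, did not overlap between the lines, with 1.97 ± 0.601 and 3.83 ± 0.764 CPM (0.96, edgeR adjusted p = 0.13), and was the 1 gene of this list with an unadjusted p under 0.05 (16.7%, against 21.4% of all tested genes).

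Levels of different genes were compared per length, in FPKM. In C4-2B the mean level ran from MALAT1 (10.2) through NEAT1 (7.41), LINC01029 (5.24), PCAT1 (0.735) and DRAIC (0.125) to PCGEM1 (0.0300) and PCA3 (0.0168). In RC4-2B LINC01029 came first with 18.02, followed by MALAT1 (8.33), NEAT1 (4.05), PCAT1 (1.29), DRAIC (0.175), PCGEM1 (0.0518) and PCA3 (0.0383). Neighbours in these orders did not overlap in their replicates, except for MALAT1 and NEAT1 in C4-2B and for PCGEM1 and PCA3 in both lines. The lowest LINC01029 level in RC4-2B was 17.0 and the highest MALAT1 level there was 9.29. These FPKM values divide by the gene length that the tables give, and the length transcribed in these cells was not measured. That length is 2094 bases for LINC01029, 8829 for MALAT1 and 22767 for NEAT1, while GENCODE release 44 gives LINC01029 4449 exonic bases. The place of LINC01029 depends on these lengths. By CPM, which does not divide by length, NEAT1 (102) came before MALAT1 (80.9) and LINC01029 (41.4) in RC4-2B.

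The genes closest in pattern to MALAT1 over the 6 libraries were FAM227A and SSSCA1-AS1, with root mean square differences of 0.076 and 0.088 on the log2 scale. Those closest to NEAT1 were COL7A1, the gene of the type VII collagen chain, and PLCH2, a phospholipase C gene, at 0.13 and 0.14. Both had low values in RC4-2B replicates 2 and 3 like NEAT1, with 66, 20 and 36 reads of COL7A1 and 56, 21 and 34 reads of PLCH2 in RC4-2B replicates 1 to 3.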

How the data were processed

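RNAseq libraries of C4-2B and RC4-2B were analysed, 3 biological replicates each. Per the labels, STAR and GRCh38 were used for mapping, and the deposited counts are whole reads per gene without normalization. The FPKM values deposited by the authors are these counts divided by gene length and by 1 total per library. The counter, its use of strand, the RNA selection and the annotation release are not given in the sources used here. Tables were joined to the labels by column names.

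Counts were fitted in R 4.3.3 with edgeR 4.0.16 (TMM, filterByExpr with a minimum of 10 counts, glmQLFit and glmQLFTest with cell line as the only term, Benjamini-Hochberg over 15054 genes, threshold 0.05). DESeq2 1.42.0 and limma 3.58.1 were alternatives, as were other scalings and filters, a GC offset (lowess, span 0.2, GENCODE release 44), the replicate number as a block and each library left out. The edgeR fit was tested on simulated data. Intervals are 95%. Neighbours start within 500 kb of a member. Likeness is the root mean square difference of centred log2 CPM (prior count 0.5, mean log2 CPM of at least 1).

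The members and lists were chosen with earlier results of these data known. The text names the members, listed genes that pass and the 2 most abundant tested genes of each list, the nearest and overlapping genes, neighbours that pass, and the 2 genes most like each tested member; DSC3, PAQR5, NONO, SFPQ, DAZAP1, RPP21, SCHLAP1, ARLNC1, TM7SF2, DRAP1, FIRRE, RN7SL1 and TERC were added after their values were seen. Some genes and sequences that this rule covers are not reported here. No replicate was a copy of another (chi-square per gene at least 3.38). Sequences were read from hg38. The spans of 4 of the 7 members are identical in GENCODE release 44, and the other 3 overlap it on the same strand.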

Additional observations from a re-analysis of the deposited data

How the results depend on the processing

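No fold change of a tested member changed sign under any of the alternatives. The count of tested lncRNAs called higher was 0 with all libraries and 1 (PCAT1) with DESeq2, with the GC offset, with the GC offset and without RC4-2B replicate 2, and with no filter; leaving out 1 library gave 0 to 1. The count called lower was 0 and became 1 (NEAT1) with no filter and with the GC offset without RC4-2B replicate 2, and leaving out 1 library gave 0 to 1. Among 119 tested list and neighbour genes (AC134978.1 left out), 0 were called by edgeR in either direction and 23 had an unadjusted p under 0.05 (3220 of all 15054 tested genes did). Higher calls numbered 2 with DESeq2, 3 with the GC offset and 3 with the GC offset without RC4-2B replicate 2. They numbered 1 with no filter and 0 to 3 with 1 library left out. Over all genes 3.28%, 4.36%, 6.74% and 2.07% were called higher in the first 4 and 0.0838% to 6.5% with 1 library left out. Lower calls numbered 4, 6, 16, 7 and 0 to 12 in the same order, where 2.64%, 3.25%, 6.59% and 2.22% of all genes were called lower in the first 4 and 0.2% to 6.02% with 1 library left out. The cause was not tested. The log2 fold change of LINC01029 was 1.61 with limma on log2(FPKM + 1), a scale that shrinks changes of low values, and lay between 1.71 and 1.83 with 1 library left out. The order of levels by CPM in place of FPKM kept 1 of 7 genes in place in C4-2B and 3 of 7 in RC4-2B.

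Over all genes, edgeR called 162 higher and 136 lower, against 500 and 402 with DESeq2, 604 and 646 with no filter, 657 and 490 with the GC offset, 1000 and 925 without RC4-2B replicate 2, and 1037 (6.74%) and 1013 (6.59%) with the GC offset and without that library. Deviations of same-numbered replicates of the lines had correlations of 0.38, 0.21 and -0.089, and those of differently numbered replicates ran from -0.34 to 0.22. These few values do not settle whether the numbers pair the samples. With the replicate number as a block 0 members were called, PCAT1 had a log2 fold change of 0.79 (edgeR adjusted p = 0.085) and NEAT1 one of -1.03 (edgeR adjusted p = 0.15), and 55 genes were higher and 74 lower. PCA3 and PCGEM1 had too few reads for the test at this depth, and the cause of their low counts was not tested.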
